A study of Mus musculus with 10 samples.

Results

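The 41 protein-coding genes described here are those of the mouse MHC (called H2) and of the machinery that serves it: 34 genes whose name starts with H2-, plus B2m, Tap1, Tap2, Tapbp, Nlrc5, Cd74 and Ciita, out of 54532 genes in the deposited table. They were followed in the livers of 10 mice by bulk RNA sequencing of messenger RNA. All mice were on a C57BL/6J background and homozygous for a construct at the ROSA26 locus in which a floxed stop sequence lies before a murine ASK1 cDNA. The 5 ASK1f/f mice (control littermates) carried no Cre, while the 5 ASK1+hep mice also carried Cre under the albumin promoter, which is active in hepatocytes, so that ASK1 was overexpressed there. The mice were 6 weeks old when the 59% high fat diet (HFD) began, ate it for 7 weeks, and had a 5 h fast before tissue was taken. Each library came from 1 liver.

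MHC class I molecules are displayed by almost every nucleated cell and present peptides from proteins made inside it to CD8 T cells. The peptides are cut by the proteasome, pumped into the endoplasmic reticulum by the Tap1 and Tap2 transporter and loaded with the help of tapasin (Tapbp) onto a heavy chain that is bound to beta-2-microglobulin (B2m). Nlrc5 is the transactivator of these genes. MHC class II molecules are heterodimers of an alpha and a beta chain that present peptides from engulfed material to CD4 T cells, and they are made mainly by dendritic cells, macrophages and B cells, also in the liver. Their invariant chain is Cd74, their peptide exchange is catalysed by H2-DM and restrained by H2-O, and their transactivator is Ciita. H2-Q10 is a secreted class I heavy chain made in the liver, and H2-T23 (Qa-1) is a non-classical heavy chain recognised by natural killer cells.

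The 41 genes comprised 24 class I heavy chain genes, 9 class II chain genes, 5 class I pathway genes outside the H2- names, 2 class II pathway genes (Cd74 and Ciita) and H2-Ke6. H2-Ke6 lies in the region but encodes a hydroxysteroid dehydrogenase and was counted in neither class. All H2- genes lie on chromosome 17 between 33996017 and 37483552 (GRCm38), a stretch of 3.49 Mb. The 9 class II genes lie together within 0.248 Mb of it, from 34092340 to 34340229, and class I genes lie on both sides of them. The genes outside the H2- names lie on other chromosomes, apart from Tap1, Tap2 and Tapbp, which are in or next to the same stretch.

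To show what the class I and class II control regions look like, stretches of 170 bases upstream of 3 class I and 2 class II genes are given below (RefSeq, GRCm38.p6). Capitals mark 3 short motifs on either strand. They are the Y box (ATTGG, bound by NF-Y), the core of the X2 box (TGACG, bound by CREB family factors) and a form of the interferon-stimulated response element shortened to 9 letters (TTTCNNTTC). The stretches are H2-K1 on the minus strand of chr17:34000348-34000517, H2-Q7 on the plus strand of chr17:35438985-35439154, H2-Q10 on the plus strand of chr17:35469919-35470088, H2-Aa on the minus strand of chr17:34287824-34287993, whose last few bases lie within the gene as deposited, and H2-Eb1 on the plus strand of chr17:34305697-34305866, where an antisense transcript is also annotated.
H2-K1: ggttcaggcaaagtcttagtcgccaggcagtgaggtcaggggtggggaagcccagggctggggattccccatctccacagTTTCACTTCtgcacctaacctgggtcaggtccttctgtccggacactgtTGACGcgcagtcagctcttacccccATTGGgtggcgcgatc
H2-Q7: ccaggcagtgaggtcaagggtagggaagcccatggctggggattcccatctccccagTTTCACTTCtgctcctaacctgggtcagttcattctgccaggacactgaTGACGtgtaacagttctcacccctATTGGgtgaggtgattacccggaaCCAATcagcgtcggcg
H2-Q10: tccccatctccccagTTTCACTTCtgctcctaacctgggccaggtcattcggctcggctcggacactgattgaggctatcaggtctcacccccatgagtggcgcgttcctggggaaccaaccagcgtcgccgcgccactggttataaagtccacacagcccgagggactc
H2-Aa: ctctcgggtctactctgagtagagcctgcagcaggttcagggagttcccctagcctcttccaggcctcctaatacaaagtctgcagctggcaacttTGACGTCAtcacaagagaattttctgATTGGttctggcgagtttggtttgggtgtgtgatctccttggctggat
H2-Eb1: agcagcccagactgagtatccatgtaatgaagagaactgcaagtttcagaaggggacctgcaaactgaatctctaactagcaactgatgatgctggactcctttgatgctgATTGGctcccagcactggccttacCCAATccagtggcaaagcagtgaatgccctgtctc
The classical H2-K1 and the Qa-2 gene H2-Q7 carried the same 3 motifs in the same order, whereas the stretch of H2-Q10 held the shortened response element but matched neither the Y box nor the X2 core. The stretches of H2-Aa and H2-Eb1 held the Y box and no shortened response element, and the X2 core was matched in H2-Aa only, on both strands of a palindrome.

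Promoter windows from 250 bases before to 50 bases after the start were at hand for 34 of the 41 genes, as 37 windows. The Y box was found in 33 of the 37 windows, against 37.4% of all 32851 promoter windows. The X2 core was found in 15 of 37, against 20.8% of all windows. It was found in 12 of 24 class I windows and in 1 of 9 class II windows. The response element of 10 letters (TTTCNNTTTC) was found in 3 of 37 windows, against 3.44% of all. The shortened form of 9 letters (TTTCNNTTC), chosen after the data were seen, was found in 9 of 24 class I windows and in 0 of 9 class II windows, against 7.52% of all windows. A match to the longer form does not imply a match to the shortened one. A match is a description of letters and not a binding site, and no window was at hand for Cd74, Ciita, H2-Ab1, H2-Q1, H2-T24, Nlrc5 and Tap2.

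Libraries held 13367742 to 16163378 reads on genes, recovered as whole numbers from the deposited FPKM (fragments scaled to gene length and library size). Hepatocyte markers dominated every liver, with a summed level of 30248 to 45725 FPKM over Alb, Ttr, Apoa1, Serpina1a, Cps1 and Tat. Transcripts of Map3k5, which encodes ASK1, stood at 4.71 to 6.88 FPKM in 4 ASK1f/f livers, at 7.68 to 16.4 in the ASK1+hep livers and at 19.8 in the library labelled ASK1f/f replicate 5, which thus went against its label. Fgf21 in that library was at 3.21 FPKM, within the 2.46 to 4.74 of its group, against 7.40 to 30.1 in ASK1+hep livers. Values without that library are given beside the results that it moves most.

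Of the 41 genes, 25 passed the filter on low values, which asked for 10 reads or more (after scaling to a library of median size) in 5 livers or more: 12 of 24 class I, 6 of 9 class II, all 5 class I pathway and both class II pathway genes. Of the 16 others, 8 had 0 reads in every liver, which at these depths allows at most 3 reads a library, and all were class I genes of the M region (H2-M1, H2-M9, H2-M10.1 to H2-M10.5 and H2-M11). The other 8 had a few reads: H2-DMb2 (4 to 14 reads), H2-Ke6 (0 to 11), H2-Oa (1 to 7), H2-M2, H2-M10.6 and H2-Eb2 (0 to 2 each), and H2-T3 and H2-M5 (1 read in 1 liver each). These 16 genes were not tested.

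Class I transcripts were far more abundant than class II transcripts in every liver. Summed over the heavy chain genes, class I reached 1688 ± 86.1 FPKM in the control livers and 1846 ± 417 FPKM in those of ASK1+hep mice (SD, n = 5 each). Class II chains summed to 56.5 ± 18.7 and 56.0 ± 17.7 FPKM (SD, n = 5 each). The class I sum exceeded the class II sum 22.8-fold to 52.5-fold, with a median of 29.7-fold, in 10 of 10 livers. FPKM is scaled to the deposited gene length, so these sums compare levels between genes only as far as those lengths hold. They were 4348 bases for H2-Q10, 2608 for H2-K1 and 1184 for H2-Eb1. The longest annotated protein-coding transcripts of these genes have 1991, 1619 and 1669 bases. Taken instead as the median log2(FPKM + 1) of the genes of a class that passed the filter, the difference was 1.68 on the log2 scale, against a mean log2 ratio of the sums of 5.02 (SD 0.41, n = 10).

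A few genes carried each class. H2-K1, H2-Q10 and H2-D1 together made up 87.9% to 91.6% of the class I sum, and H2-Aa, H2-Ab1 and H2-Eb1 made up 88.0% to 92.9% of the class II sum. B2m was the most abundant of the 25 genes, with a median of 1542 FPKM over the 10 livers, and lay above H2-K1 in all of them. H2-K1 followed with a median of 701 FPKM and H2-Q10 with 574, and H2-K1 lay above H2-Q10 in 8 of 10 livers. The order of these genes rests on the deposited lengths, since H2-Q10 had 27296 to 74339 reads per library and H2-K1 18309 to 31101. H2-D1 (median 253 FPKM) and H2-T23 (90.5) came next, each below its predecessor in all 10 livers. Cd74, at a median of 58.2 FPKM, stood above each of the class II chains, whose medians were 19.5 for H2-Eb1, 16.3 for H2-Ab1 and 15.9 for H2-Aa.

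Below them the order was less distinct. H2-Eb1 lay above H2-Q7 (median 19.2 FPKM) in 5 of 10 livers, H2-Q4 (17.8) above H2-Ab1 in 6 of 10, H2-Q1 (3.02) above H2-DMb1 (2.23) in 6 of 10 and H2-DMb1 above H2-DMa (2.18) in 4 of 10, so the order of these neighbours changed from liver to liver. Tap1 and Tap2, the subunits of 1 transporter, had medians of 9.34 and 6.20 FPKM, Tap1 being higher in 10 of 10 livers. The transactivators were low: Nlrc5 had a median of 3.39 FPKM and Ciita of 0.131 FPKM, the lowest of the 25 genes.

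**Figure D1:**
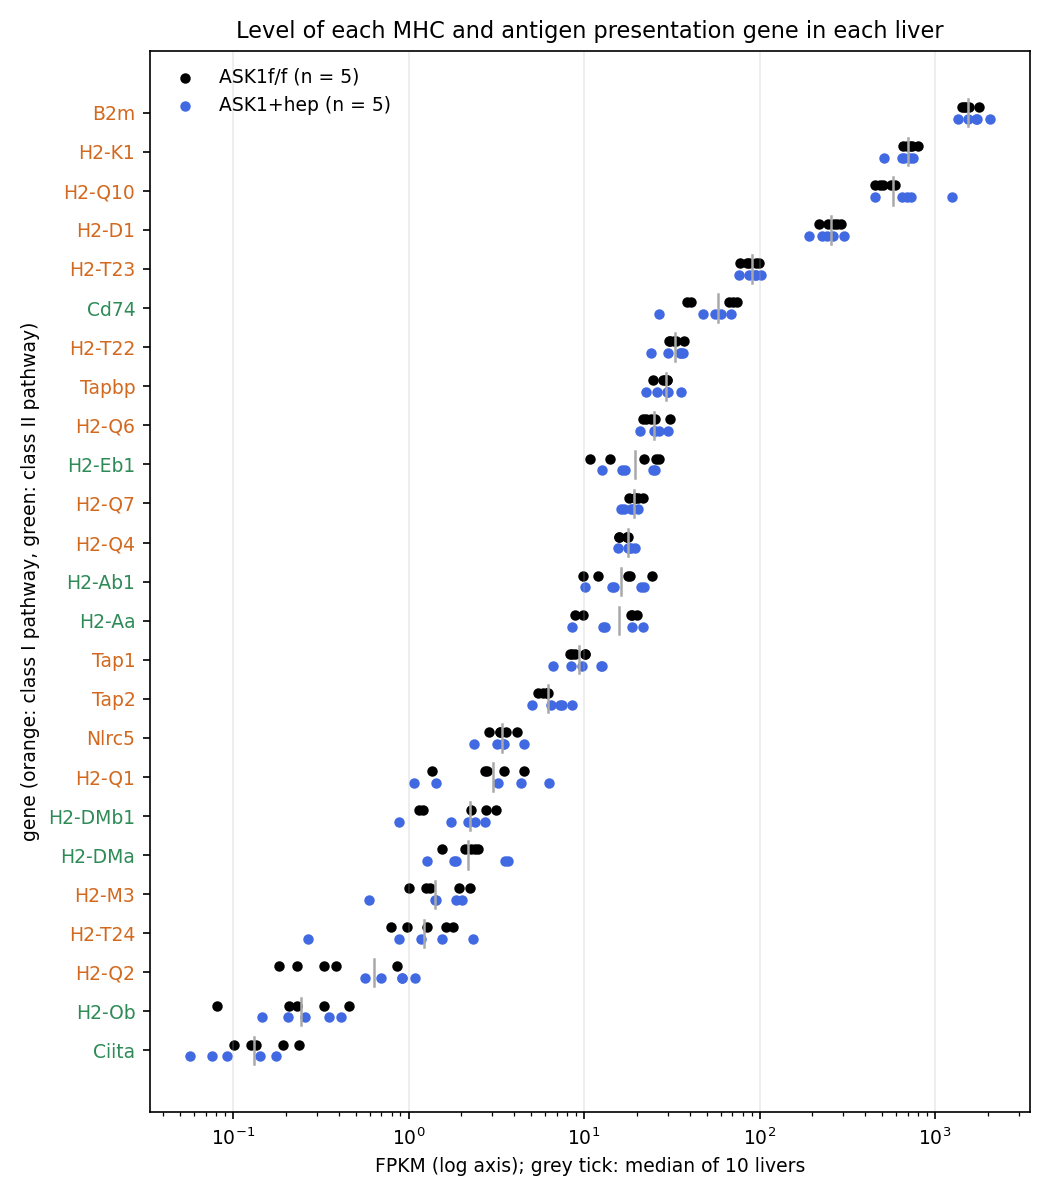
Level of the 25 genes that passed the filter, in FPKM on a log axis, with 1 point per liver (black: ASK1f/f, n = 5; blue: ASK1+hep, n = 5) and a grey tick at the median of the 10 livers. Genes run from B2m (median 1542 FPKM) to Ciita (0.131 FPKM), and the points of the genotypes overlap in every gene.

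The next comparison asked whether overexpression of ASK1 in hepatocytes changed these transcripts. No gene passed the threshold used: 0 of 25 genes had an adjusted p at or below 0.05 (limma on log2(FPKM + 1), Benjamini-Hochberg adjustment over 13306 genes), as did 0 of all 13306 genes tested (0%). The same fit called neither Fgf21 (log2 fold change 2.06, SE 0.32, limma adjusted p = 0.355) nor Map3k5 (0.60, SE 0.32, limma adjusted p = 0.812). The lack of a call therefore does not show that a gene was unchanged. An unadjusted p under 0.05 was seen for 1 of 25 genes, H2-Q2, against 5.77% of all genes. It was higher in ASK1+hep livers, as were 3.05% of all genes by this measure, while 2.72% were lower. Log2 fold changes were above 0 for 13 genes and below 0 for 12, while 48.0% of all genes were above 0. Their median was 0.00 over the 25 genes and -0.01 over all genes. No gene had genotypes that did not overlap in FPKM, against 0.864% of all genes tested.

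The classes did not stand apart in this respect. Class I heavy chains had a median log2 fold change of -0.02, with 6 of 12 above 0, and class II chains had 0.00, with 3 of 6 above 0. The 5 class I pathway genes had a median of 0.08, with 4 above 0, and Cd74 and Ciita were both below 0. The confidence intervals show which sizes of change are still open. They reached from -0.62 to 0.60 on the log2 scale for H2-Aa, from -0.53 to 0.57 for H2-Ab1 and from -0.58 to 0.56 for H2-Eb1, with 5 livers a genotype. These are intervals of single genes without adjustment and not the size needed for a call. Fgf21, at a log2 fold change of 2.06, was not called either. The intervals were narrower for H2-Q4 (-0.12 to 0.27), H2-Q7 (-0.33 to 0.09) and H2-T23 (-0.21 to 0.28).

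**Figure D2:**
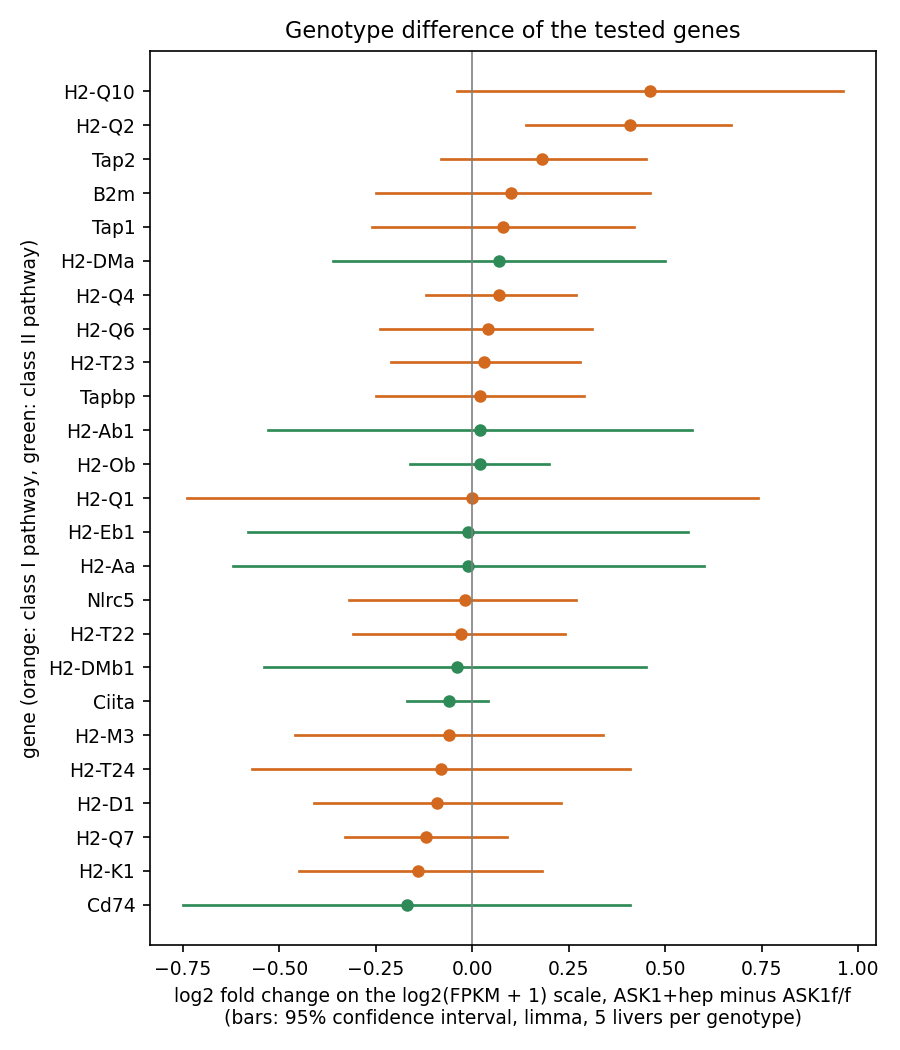
Log2 fold change of ASK1+hep over ASK1f/f livers for the 25 tested genes, on the log2(FPKM + 1) scale, with 95% confidence intervals from limma (5 livers per genotype; orange: class I and its pathway, green: class II and its pathway). Only the interval of H2-Q2 (0.14 to 0.67) leaves out 0, and those of H2-Aa, H2-Ab1, H2-Eb1 and Cd74 are wider than those of H2-K1 and H2-D1.

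H2-Q10 had the largest fold change on this scale. Its level was 558, 507, 457, 488 and 589.6 FPKM in ASK1f/f replicates 1 to 5 and 644, 687, 1241, 728 and 456 FPKM in ASK1+hep replicates 1 to 5. Thus 4 of 5 ASK1+hep livers lay above every ASK1f/f liver, 1 of them far above, and the fifth lay just below all of them. The means were 520.0 ± 53.5 and 751 ± 293 FPKM (SD, n = 5 each), a 1.44-fold difference with a log2 fold change of 0.46 (SE 0.23, 95% CI -0.04 to 0.96, limma adjusted p = 0.812). The log2 fold change fell to 0.26 without ASK1+hep replicate 3 and rose to 0.62 without ASK1+hep replicate 5, with adjusted p-values of 0.998 and 0.383 by limma. Reads of H2-Q10 numbered 27296 to 74339 per library. Of the 100-base windows of its longest protein-coding transcript, 2.06% occurred in transcripts of another gene. That transcript has 1991 bases, against a deposited gene length of 4348, and the rest was not examined.

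The shares of H2-Q10 and H2-K1 in the class I sum separated the genotypes where their levels did not. The share of H2-D1 overlapped, at 14.0% to 16.5% in ASK1f/f and 12.3% to 14.5% in ASK1+hep livers. H2-Q10 made up 33.1%, 29.9%, 26.0%, 31.6% and 33.5% of the class I sum in the ASK1f/f livers and 37.1%, 38.7%, 50.2%, 37.6% and 34.7% in the ASK1+hep livers, on average 30.8% ± 3.03 and 39.7% ± 6.10 (SD, n = 5 each). Every ASK1+hep liver thus lay above every ASK1f/f liver, with or without ASK1f/f replicate 5. The share of H2-K1 was the reverse, at 40.7% to 45.4% in ASK1f/f and 29.1% to 38.8% in ASK1+hep livers. These shares were looked at after the values were seen, so no test is given. Shares of 1 sum are not independent of each other, so that a higher H2-Q10 by itself lowers the share of H2-K1. They are free of the scaling between libraries, and their size rests on the deposited gene lengths. How often the share of other genes in a sum would separate the genotypes was not counted.

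The same held for the ratio of H2-Q10 to H2-K1 within a liver, which was 0.573 to 0.824 in ASK1f/f and 0.894 to 1.73 in ASK1+hep livers. Of the 24 other tested genes, 3 had a ratio to H2-K1 that did not overlap between the genotypes, against 2.35% of all genes tested (2.28% higher). They were H2-Q10, B2m (2.03 to 2.24 against 2.27 to 3.17) and Tap2 (0.00737 to 0.00933 against 0.00995 to 0.0119), all higher relative to H2-K1 in ASK1+hep livers, and B2m missed an overlap by a small margin. Among all genes tested, 313 separated by this ratio and 303 of them were higher, so the direction is not particular to these 3. H2-D1, the other abundant classical heavy chain, kept a ratio to H2-K1 of 0.330 to 0.388 in ASK1f/f and 0.341 to 0.423 in ASK1+hep livers. This ratio was also chosen after the values were seen and has no test.

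**Figure D3:**
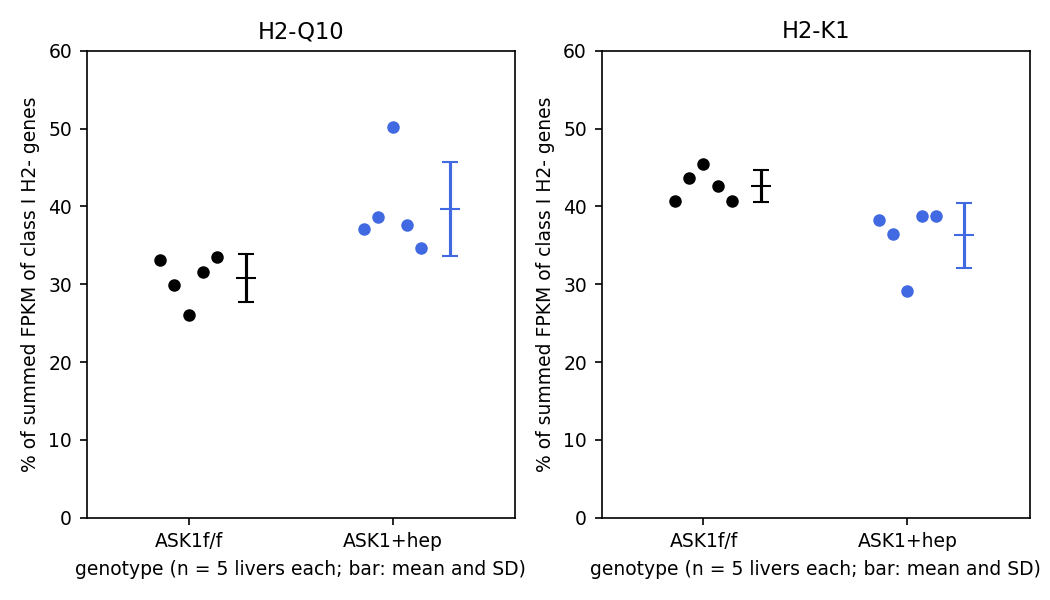
Share of H2-Q10 (left) and of H2-K1 (right) in the summed FPKM of the class I heavy chain genes, in percent, with 1 point per liver (n = 5 per genotype) and the mean with SD beside them. The share of H2-Q10 was 26.0% to 33.5% in ASK1f/f and 34.7% to 50.2% in ASK1+hep livers, and that of H2-K1 was lower in each ASK1+hep liver than in any ASK1f/f liver.

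H2-Q2, another gene of the Q region, had the lowest p of the 25 genes. Its level was 0.384, 0.233, 0.184, 0.331 and 0.864 FPKM in ASK1f/f replicates 1 to 5 and 0.914, 0.922, 0.699, 1.09 and 0.566 FPKM in ASK1+hep replicates 1 to 5. The ASK1+hep livers lay above 4 of the ASK1f/f livers, and the library labelled ASK1f/f replicate 5 lay among them. The log2 fold change was 0.41 (SE 0.12, 95% CI 0.14 to 0.67, limma adjusted p = 0.804). It rested on 6 to 35 reads per library, and the scale with 1 added to each value understates the change of so low a gene, which was 1.22 by limma-voom on the recovered reads (adjusted p = 0.803). Without ASK1f/f replicate 5 it was 0.51 with limma adjusted p = 0.186, the lowest adjusted p of any of these genes in any setting.

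No difference of the classical heavy chains or of their partner B2m between the genotypes was called. The 95% confidence intervals of the log2 fold change ran from -0.45 to 0.18 for H2-K1, from -0.41 to 0.23 for H2-D1 and from -0.25 to 0.46 for B2m. H2-K1 stood at 687, 741, 797, 658 and 716 FPKM in ASK1f/f and at 666, 645, 718, 752 and 509.6 FPKM in ASK1+hep livers, with a log2 fold change of -0.14 (SE 0.14). H2-D1 stood at 244, 266, 289.7, 217 and 277 FPKM in ASK1f/f and at 227, 241, 304, 263 and 191 FPKM in ASK1+hep livers, with a log2 fold change of -0.09 (SE 0.15). In both genes ASK1+hep replicate 5 was the lowest of the 10 livers and the genotypes overlapped. B2m stood at 1431, 1504, 1789, 1453 and 1553 FPKM in ASK1f/f and at 1532, 2047, 1721, 1709 and 1349.5 FPKM in ASK1+hep livers, with a log2 fold change of 0.10 (SE 0.16). The highest and the lowest B2m level were both in ASK1+hep livers. Limma adjusted p-values were 0.842, 0.894 and 0.889 for these 3 genes.

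Of the non-classical heavy chains, H2-T23 stood at 95.2, 84.7, 99.4, 86.7 and 77.7 FPKM in ASK1f/f and at 93.8, 102, 95.2, 87.1 and 76.6 FPKM in ASK1+hep livers, with a log2 fold change of 0.03 (SE 0.11). H2-M3, which presents N-formylated peptides of bacteria and mitochondria, stood at 1.25, 1.32, 2.23, 1.01 and 1.94 FPKM in ASK1f/f and at 1.43, 0.592, 1.87, 2.02 and 1.41 FPKM in ASK1+hep livers, with a log2 fold change of -0.06 (SE 0.18). The genotypes overlapped in both. The other class I genes were H2-T22 (24.1 to 36.9 FPKM over the 10 livers), H2-Q6 (20.8 to 31.0), H2-Q7 (16.2 to 21.7), H2-Q4 (15.7 to 19.5), H2-Q1 (1.07 to 6.32) and H2-T24 (0.266 to 2.34), with log2 fold changes of -0.12 to 0.07. Several of these are close copies of each other. Of the 100-base windows of their longest protein-coding transcripts, 16.4% for H2-Q7, most of them in H2-Q6, 14.2% for H2-T22 and 13.1% for H2-Q1 also occurred in transcripts of another gene, so that their separate levels are uncertain, while this share was 0% for H2-K1.

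In the loading machinery, Tap1 stood at 10.1, 8.31, 8.56, 10.1 and 8.93 FPKM in ASK1f/f and at 12.5, 8.45, 9.74, 12.6 and 6.69 FPKM in ASK1+hep livers, with a log2 fold change of 0.08 (SE 0.16). Tap2 stood at 6.26, 5.46, 6.14, 6.13 and 5.81 FPKM in ASK1f/f and at 7.30, 6.48, 8.58, 7.49 and 5.07 FPKM in ASK1+hep livers. Here 4 of 5 ASK1+hep livers lay above all ASK1f/f livers and replicate 5 lay below them, the pattern of H2-Q10. The log2 fold change of Tap2 was 0.18 (SE 0.12, limma adjusted p = 0.812). Leaving out replicate 5 of ASK1+hep gave 0.28 (limma adjusted p = 0.383). Tapbp stood at 24.6 to 29.8 FPKM in ASK1f/f and at 22.5 to 35.8 FPKM in ASK1+hep livers, with medians of 28.9 and 29.6. Nlrc5 stood at 3.33, 3.60, 3.32, 2.87 and 4.13 FPKM in ASK1f/f and at 3.46, 4.54, 2.36, 3.21 and 3.50 FPKM in ASK1+hep livers. The genotypes overlapped in both, with log2 fold changes of 0.02 (SE 0.12) and -0.02 (SE 0.13). Exons of Tap1, Tap2, Tapbp and Nlrc5, and of H2-T22, H2-Q4 and Ciita, overlap those of other genes. Most of these lie on the opposite strand, as Psmb9 does in Tap1, and reads there can belong to either gene where strand was not used in counting. Zbtb22 overlaps Tapbp on the same strand, where strand does not tell the genes apart.

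No difference of class II transcripts between the genotypes was detected, and their levels varied widely from liver to liver. H2-Aa stood at 8.85, 18.8, 20.1, 9.89 and 18.6 FPKM in ASK1f/f and at 12.8, 8.54, 21.8, 18.8 and 13.1 FPKM in ASK1+hep livers, with a log2 fold change of -0.01 (SE 0.28). H2-Ab1 stood at 9.81, 17.7, 24.3, 12.04 and 18.3 FPKM in ASK1f/f and at 14.5, 10.1, 21.99, 20.97 and 14.9 FPKM in ASK1+hep livers, with a log2 fold change of 0.02 (SE 0.25). In both genes ASK1f/f replicates 1 and 4 and ASK1+hep replicate 2 were the 3 lowest livers, and ASK1f/f replicate 3 and ASK1+hep replicate 3 were the 2 highest. H2-Eb1 stood at 14.0, 25.8, 26.6, 10.8 and 21.95 FPKM in ASK1f/f and at 17.1, 12.6, 25.4, 24.7 and 16.4 FPKM in ASK1+hep livers, with the same 3 livers lowest. Limma adjusted p-values were 0.993, 0.988 and 0.996 for these 3 chains.

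The partners of the chains went with them. Cd74 stood at 40.6, 70.4, 73.9, 38.5 and 66.8 FPKM in ASK1f/f and at 55.9, 26.9, 60.5, 68.6 and 47.5 FPKM in ASK1+hep livers, lowest again in ASK1+hep replicate 2 and in ASK1f/f replicates 4 and 1. Its log2 fold change was -0.17 (SE 0.27, limma adjusted p = 0.887). H2-DMa stood at 2.26, 2.09, 2.48, 1.56 and 2.38 FPKM in ASK1f/f and at 1.82, 1.27, 3.54, 3.67 and 1.86 FPKM in ASK1+hep livers. H2-DMb1 stood at 1.21, 2.27, 2.75, 1.15 and 3.15 FPKM in ASK1f/f and at 1.74, 0.885, 2.74, 2.19 and 2.40 FPKM in ASK1+hep livers. For both H2-DM chains ASK1+hep replicate 2 was the lowest and ASK1f/f replicate 4 the next lowest, and the log2 fold changes were 0.07 (SE 0.20) and -0.04 (SE 0.23). The longest protein-coding transcript of H2-DMb1 shares 13.7% of its 100-base windows with H2-DMb2.

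The transactivator Ciita did not follow this order. It stood at 0.101, 0.127, 0.238, 0.193 and 0.136 FPKM in ASK1f/f and at 0.0922, 0.0568, 0.0761, 0.142 and 0.175 FPKM in ASK1+hep livers, on 7 to 34 reads per library. It was lowest in ASK1+hep replicate 2, which was also among the lowest livers in the chains, but ASK1f/f replicate 4, low in the chains, had the second highest level. Its log2 fold change was -0.06 (SE 0.05, limma adjusted p = 0.814), and -0.56 by limma-voom on the recovered reads (adjusted p = 0.803), where low values are not compressed. H2-Ob, a chain of the H2-O inhibitor, stood at 0.0806 to 0.456 FPKM over the 10 livers on 4 to 24 reads.

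**Figure D4:**
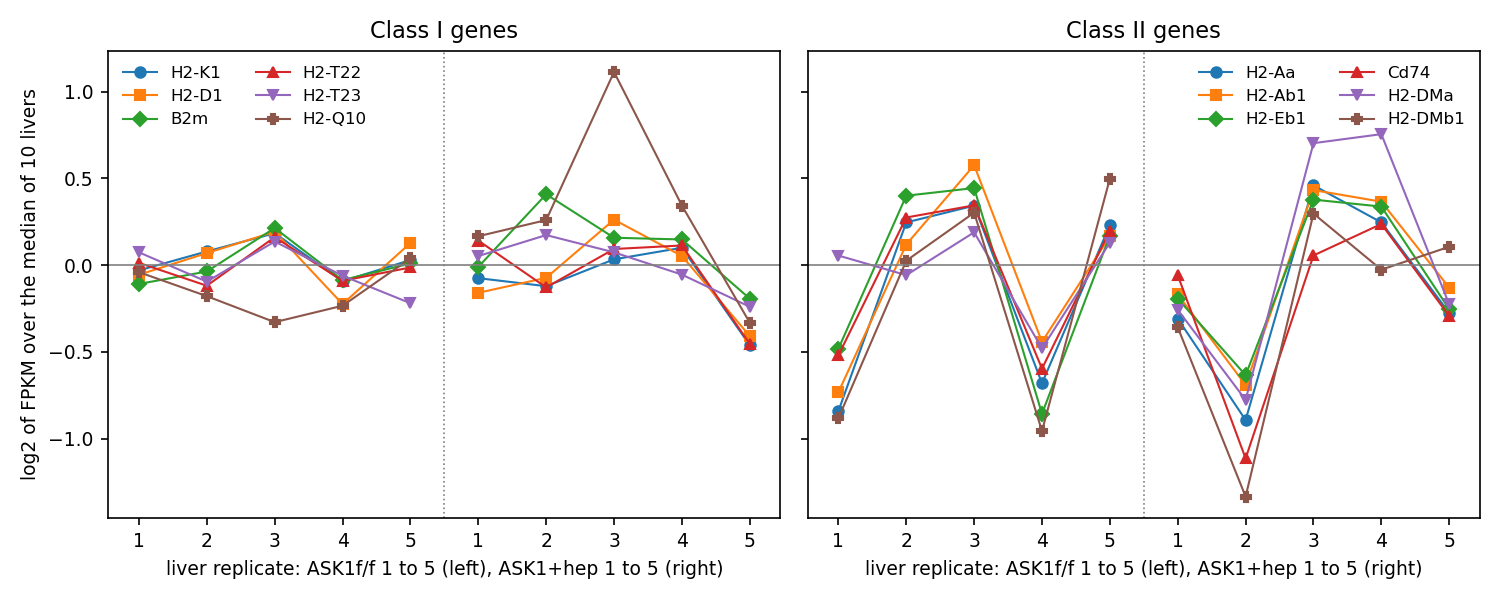
Level of 6 class I genes (left) and 6 class II genes (right) in each liver, as log2 of the FPKM over the gene's median of the 10 livers, with ASK1f/f replicates 1 to 5 left of the dotted line and ASK1+hep replicates 1 to 5 right of it. Class II genes dip together in ASK1f/f replicates 1 and 4 and ASK1+hep replicate 2, apart from H2-DMa in ASK1f/f replicate 1, whereas class I genes other than H2-Q10 stay nearer to their medians. The 6 class I genes also share a low liver, as each has its lowest level in ASK1+hep replicate 5.

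The spread between livers of 1 genotype was larger in the median for class II than for class I genes, with ranges that overlapped. The SD within genotypes on the log2(FPKM + 1) scale had a median of 0.436 over the 6 class II chains tested (0.143 to 0.512) and of 0.201 over the 12 class I heavy chains (0.0976 to 0.631), against 0.195 over all 13306 genes. For H2-Aa, Cd74, H2-Eb1 and H2-Ab1 it was 0.512, 0.484, 0.480 and 0.459, larger than that of 95.3%, 94.3%, 94.1% and 93.1% of genes. For H2-K1 and B2m it was 0.171 and 0.182, larger than that of 40.6% and 45.3% of genes. The widest class I gene was H2-Q1 (0.631), and among the abundant ones H2-Q10 (0.382). These are descriptions of 10 livers without a test.

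Across the 10 livers the class II chains H2-Aa, H2-Ab1 and H2-Eb1 moved as a group with Cd74. Over 12 pairs of genes, H2-Ab1 correlated with H2-Aa (Pearson r = 0.97, adjusted permutation p = 0.000480, Spearman rho = 0.94, adjusted permutation p = 0.00336), with H2-Eb1 (r = 0.91, adjusted permutation p = 0.00232, rho = 0.87, adjusted permutation p = 0.0147) and with Cd74 (r = 0.89, adjusted permutation p = 0.00232, rho = 0.84, adjusted permutation p = 0.0161). Without the 2 livers farthest from the median of H2-Ab1, r was 0.94, 0.92 and 0.85. Within ASK1f/f and within ASK1+hep livers r was 0.96 and 1.00 for H2-Aa, 0.87 and 0.99 for H2-Eb1 and 0.93 and 0.91 for Cd74, over 5 livers each and given as values only. Ciita had r = 0.39 with H2-Ab1 (adjusted permutation p = 0.349, rho = 0.35, adjusted permutation p = 0.443), and r = 0.00 without the 2 farthest livers.

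Of the class I pairs, H2-K1 correlated with H2-D1 (r = 0.87, adjusted permutation p = 0.00243, rho = 0.82, adjusted permutation p = 0.0168), with r = 0.73 without the 2 livers farthest from the median of H2-K1 and 0.90 and 0.88 within the genotypes. The other 5 class I pairs did not pass. H2-K1 had r = 0.44 with B2m (adjusted permutation p = 0.300, rho = 0.42, adjusted permutation p = 0.398), which turned to -0.15 without the 2 farthest livers, and r = 0.46 with Tap1 (adjusted permutation p = 0.300, rho = 0.21). It had r = -0.17 with Nlrc5 (adjusted permutation p = 0.614, rho = -0.35), r = 0.18 with Irf1 (adjusted permutation p = 0.614, rho = 0.03) and r = 0.23 with H2-Q10 (adjusted permutation p = 0.552, rho = 0.19). Without the 2 farthest livers r was 0.07 with Tap1, -0.25 with Nlrc5, 0.65 with Irf1 and 0.22 with H2-Q10. As deviations from the genotype means r was 0.61 with H2-Q10 (adjusted permutation p = 0.135) and 0.65 with B2m (adjusted permutation p = 0.106). Within ASK1f/f and within ASK1+hep livers r was -0.41 and 0.76 with H2-Q10, -0.86 and 0.83 with Tap1 and 0.89 and 0.59 with B2m. It was 0.36 and -0.37 with Nlrc5 and -0.10 and 0.44 with Irf1, so that only the sign for B2m was shared by the genotypes.

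Taken over all pairs as deviations from the genotype means, r had a median of 0.89 (0.66 to 0.97) over the 15 pairs among H2-Aa, H2-Ab1, H2-Eb1, Cd74, H2-DMa and H2-DMb1. It had a median of 0.61 (0.06 to 0.88) over 55 pairs of the more abundant class I genes other than H2-Q10 with B2m, Tap1, Tap2 and Tapbp, and of 0.35 (-0.45 to 0.77) over the 66 pairs between these sets. All pairs share the same 10 libraries. The class II set leaves out H2-Ob (4 to 24 reads per library) and Ciita (7 to 34). With the genes of that set, r was -0.0005 to 0.44 for H2-Ob and 0.12 to 0.46 for Ciita. H2-M3, a class I gene by sequence that was singled out after the values were seen, rested on 11 to 48 reads per library. It had its highest r with class II genes: 0.90 with Cd74, 0.88 with H2-Ab1, 0.88 with H2-DMb1 and 0.85 with H2-Aa. With class I genes and B2m r varied, at 0.76 with H2-Q7, 0.54 with H2-D1, 0.47 with H2-K1 and -0.06 with B2m. H2-Q10 had its highest r with Tapbp (0.87), Tap2 (0.83) and H2-D1 (0.78).

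**Figure D5:**
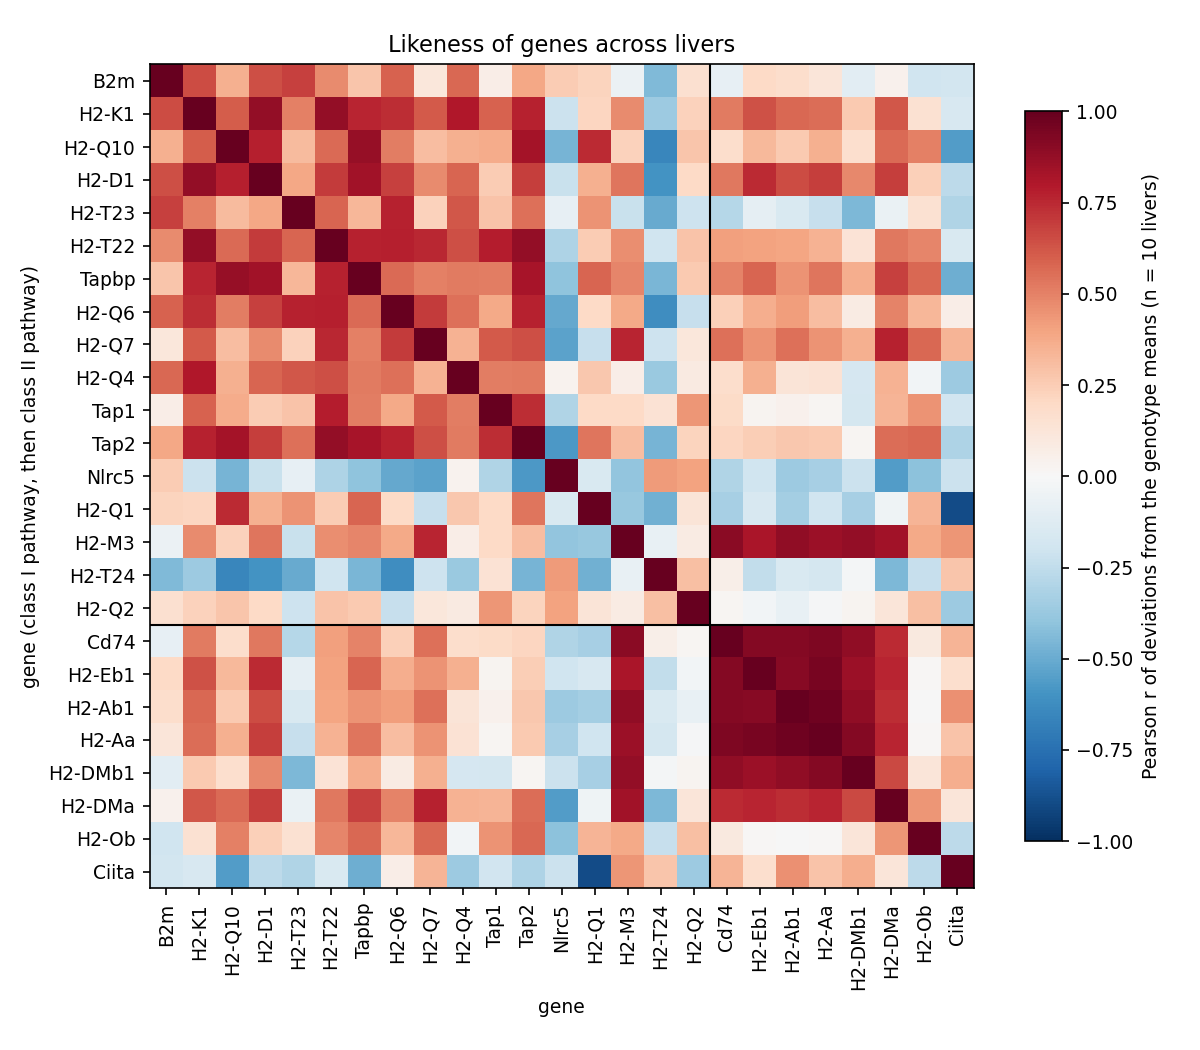
Pearson r between the 25 tested genes over 10 livers, as deviations from the genotype means on the log2(FPKM + 1) scale (red: positive, blue: negative), with class I and pathway genes first and class II genes after the black lines. The red block at the lower right holds Cd74, the 3 class II chains and both H2-DM chains (r of 0.66 to 0.97), and the row of H2-M3 is dark in the same columns.

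Whether the low class II livers held fewer antigen-presenting cells or less class II RNA per cell cannot be told apart in whole tissue. Markers of such cells were scarce. B cell markers were all detected, 4 of 8 passed the filter, and they summed to 1.19 to 2.75 FPKM in ASK1f/f and 1.09 to 3.77 FPKM in ASK1+hep livers. Dendritic cell markers (4 of 8 tested) summed to 2.13 to 3.02 and 2.24 to 4.57 FPKM, and monocyte markers (2 of 6 tested) to 0.572 to 1.47 and 0.547 to 0.796 FPKM. Kupffer cell markers, of the resident liver macrophages, were more abundant: all 9 were tested and they summed to 183 to 307 FPKM in ASK1f/f and 116 to 271 FPKM in ASK1+hep livers. No marker of any list was at 0 in every liver.

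In the 3 low class II livers, ASK1f/f replicates 1 and 4 and ASK1+hep replicate 2, Kupffer cell markers summed to 193, 183 and 116 FPKM, B cell markers to 2.75, 2.49 and 1.09 FPKM and dendritic cell markers to 2.34, 2.13 and 2.31 FPKM. ASK1+hep replicate 2 was thus lowest of all livers in Kupffer and B cell markers. All 3 were among the 4 lowest livers in Kupffer and in dendritic cell markers, while in B cell markers the low ASK1f/f livers lay within the range of the others. The remaining liver of those 4 was high in class II. It was ASK1+hep replicate 3 for Kupffer cell markers (177 FPKM, H2-Ab1 at 21.99 FPKM). For dendritic cell markers it was ASK1+hep replicate 4 (2.24 FPKM, H2-Ab1 at 20.97 FPKM). H2-Ab1 had r = 0.52 with Clec4f of Kupffer cells (adjusted permutation p = 0.300, rho = 0.52) and r = 0.46 with Cd79a of B cells (adjusted permutation p = 0.300, rho = 0.56). Neither passed, and both fell without the 2 farthest livers, to 0.08 and 0.32. Within ASK1f/f and within ASK1+hep livers r was 0.75 and 0.30 with Clec4f and -0.15 and 0.94 with Cd79a. The part of these cells in the class II levels was not tested further.

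Between the genotypes, no gene of the 9 cell type lists passed (0 of 37 tested, 14 with a log2 fold change above 0), and 1, Ttr, had an unadjusted p under 0.05. Over all genes tested these shares were 0% called, 48.0% above 0 and 5.77% with such a p. All 9 Kupffer cell markers had log2 fold changes below 0, with a median of -0.15, which ran from -0.29 without ASK1+hep replicate 1 to -0.03 without ASK1+hep replicate 2 and was -0.07 without ASK1f/f replicate 5. Examples are Adgre1 (3.80 ± 1.06 and 2.58 ± 1.72 FPKM, limma adjusted p = 0.812) and C1qb (47.3 ± 11.5 and 37.8 ± 11.7 FPKM, adjusted p = 0.812). Endothelial markers had a median of -0.18 (-0.10 without ASK1f/f replicate 5) with 6 of 7 below 0 (Stab2 -0.24, Lyve1 -0.41), and B cell markers a median of 0.07 with 4 of 4 above 0 (Cd22 0.04, Cd79b 0.11). T cell markers had only Cd4 tested (0.10), dendritic cell markers had a median of 0.01 (Batf3 0.21, Itgax 0.06), monocyte markers -0.01 (Ly6c2 -0.04, Ccr2 0.02) and cholangiocyte markers 0.01 (Krt7 -0.05, Spp1 0.20), the last pair 0.01 and 0.05 without ASK1f/f replicate 5, and no natural killer cell marker passed the filter. Hepatocyte markers had a median of 0.08 (0.03 without ASK1f/f replicate 5). Among them the secreted protein Ttr stood at 3725 ± 326 and 5531 ± 1703 FPKM (SD, n = 5 each, limma adjusted p = 0.812), and Cps1 of the urea cycle at 513 ± 46.5 and 368 ± 204 FPKM (adjusted p = 0.812).

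The other genes of antigen presentation gave no call either: 0 of 45 tested genes in 7 lists passed, and 0 had an unadjusted p under 0.05, with 17 above and 28 below 0, against the same 0%, 5.77% and 48.0% above 0 over all genes. The immunoproteasome, which replaces proteasome subunits to favour class I peptides, had a median log2 fold change of 0.21, which was 0.07 without ASK1+hep replicate 3 and 0.32 without ASK1+hep replicate 5, with 4 of 5 above 0 (Psme2 at 22.95 ± 2.30 and 30.2 ± 8.36 FPKM, limma adjusted p = 0.812, and Psmb9 at 9.20 ± 1.04 and 11.3 ± 3.38 FPKM, adjusted p = 0.817). Peptide loading genes of the endoplasmic reticulum had a median of -0.07 (-0.02 without ASK1f/f replicate 5) with 1 of 8 above 0 (Sec61a1, a translocon subunit, -0.32, and Erap1, the peptide-trimming protease, -0.31). Genes of class II processing had a median of -0.08 (-0.04 without ASK1f/f replicate 5) with 3 of 8 above 0 (Ifi30, a lysosomal thiol reductase, -0.19, and Cd68 -0.21).

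The factors that bind class II promoters had a median of -0.02 with 3 of 7 above 0 (Nfyb, an NF-Y subunit, 0.18, and Creb1 -0.13). In the interferon gamma axis, the main inducer of both classes, the median was -0.11 with 3 of 10 above 0 (Irf2 -0.27 and Irf8 -0.17). MHC-like proteins had a median of -0.08 (-0.01 without ASK1f/f replicate 5) with 2 of 5 above 0, among them the lipid-presenting Cd1d1 at 82.1 ± 6.85 and 70.4 ± 11.1 FPKM (limma adjusted p = 0.812) and Mr1, which presents vitamin B metabolites (-0.12). Of the costimulation genes 2 of 6 were tested, Cd86 (-0.21) and the checkpoint ligand Cd274 (0.11). The medians stand beside -0.01 over all genes tested.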

How the data were processed

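RNA of 10 livers was sequenced in bulk, and genotypes and replicate numbers were taken from the sample labels. According to the methods of the study, libraries of poly-A RNA were mapped with Hisat2 and reads were assigned to genes with FeatureCounts. The submitters' processing notes name fastp. Which build and annotation were used is not given in the sources used here. The values the authors deposited are FPKM, beside the length and position of each gene. Their own test, with DESeq2, was not repeated here. All 41 genes were found in GENCODE M21 (GRCm38), 31 of them with identical ends, as had 98.2% of all genes found, so coordinates are given on that build.

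Within a library, the product of FPKM and length came in whole steps (largest distance from whole 1.87e-04 reads), and from these steps reads and depth were recovered. A gene was kept if 5 livers or more had 10 reads or more after scaling to a library of median size, with a sum of 15 or more (13306 of 54532 genes). Genes kept were compared on log2(FPKM + 1) by limma 3.58.1 in R 4.3.3 using a trend of variance on mean, two-sided, and Benjamini-Hochberg adjustment over them all, and a call at an adjusted p of 0.05. Fold changes on this scale understate those of low genes. P-values measure the spread between these livers. Correlations were tested on log2(FPKM + 1) with 100000 two-sided permutations and adjusted over 12 pairs.

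The genes and lists were chosen with earlier results of these data known. Values are given in each liver for the main genes of each class and for any other with an unadjusted p under 0.05, and for each other list the 2 genes with the lowest p are named. Scripts were tested on simulated data. Every pair of libraries differed by more than sampling noise (lowest chi-square per degree of freedom 17.3). Promoter sequences came from RefSeq. Alternatives were other filters, pseudocounts, limma-voom, sample quality weights, another scaling, a block for the replicate number, the letter prefix of the sample title as a covariate and leaving out each liver.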

Additional observations from a re-analysis of the deposited data

Results flagged for a closer look

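Among 90 groups of 5 values (45 quantities in each genotype), 5 held a value set off from the other 4 by more than 0.71 of the whole range, the critical value for 5 samples. Chance gives about 1 in 20 such groups. Of these, 2 are in the library labelled ASK1f/f replicate 5. Map3k5 stood at 19.8 FPKM there, against 4.71 to 6.88 in the other ASK1f/f livers, with a gap of 0.856 of the range. Monocyte markers summed to 1.47 FPKM there, against 0.572 to 0.738, with a gap of 0.815. The other 3 are in ASK1+hep replicate 3 and express the same high level of H2-Q10. H2-Q10 made up 50.2% of the class I sum there, against 34.7% to 38.7% in the other ASK1+hep livers (gap 0.738), H2-K1 made up 29.1%, against 36.4% to 38.8% (gap 0.755), and the ratio of H2-Q10 to H2-K1 was 1.73, against 0.894 to 1.06 (gap 0.796). The other ASK1+hep livers also lay beyond the ASK1f/f range in all 3 of these measures.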

How the results depend on the processing

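In every alternative 0 of the MHC genes reached an adjusted p at or below 0.05. With an unadjusted p under 0.05, 1 gene was counted in the main comparison, 2 without a filter on reads or with sample quality weights (H2-Q10 and H2-Q2), 0 with at least 10 reads in every liver, where H2-Q2 is not tested, and 1 to 3 when a liver was left out (3 without ASK1+hep replicate 5, which added H2-Q10 and Tap2, and where 1724 of all 13306 genes had such a p against 768 in the main comparison). For the other lists this count was 1, and 0 with a pseudocount of 0.1 or with the title prefix, 3 with scaling by all reads, 5 with quality weights and 0 to 10 when a liver was left out (0 without any single ASK1f/f liver, 6, 3 and 10 without ASK1+hep replicates 1, 3 and 5), and the cause was not tested. With a replicate block it was 0, and for the MHC genes 1 (H2-Q2, limma adjusted p = 0.727). The livers were not treated as pairs, since the labels do not say what a number shares and only 2 of 5 same-numbered pairs correlated over 0.1 (0.0212 to 0.174). As a hint of pairing from the data, their mean was 0.107 against -0.0275 for other pairs, and 6 of 10 livers correlated best with their own number. In addition, 4 of 5 replicate numbers join samples whose titles carry consecutive numbers, and what the titles stand for is not given in the labels.

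Of 428 fold changes over all alternatives 382 kept their direction (turns to a value that rounds to 0.00 were not counted). H2-Q1, at 0.00 in the main comparison, is not among them and ran from -0.23 to 0.23 when a liver was left out. With scaling by all reads, which moved the median of all genes to -0.05, H2-T23 turned to -0.04, Tapbp to -0.06, H2-Q6 to -0.04 and H2-Ab1 to -0.05. With quality weights H2-Eb1 turned to 0.13, H2-Aa to 0.07, Nlrc5 to 0.10, H2-DMb1 to 0.03 and H2-T24 to 0.06. Leaving out a liver turned the direction of genes near 0, whose ranges were -0.30 to 0.04 for Cd74, -0.18 to 0.16 for H2-Aa, -0.14 to 0.17 for H2-Ab1, -0.20 to 0.12 for H2-Eb1, -0.05 to 0.21 for H2-DMa, -0.16 to 0.11 for H2-DMb1, -0.03 to 0.07 for H2-Ob, -0.14 to 0.09 for H2-M3, -0.02 to 0.11 for H2-Q6, -0.08 to 0.06 for H2-T22, -0.01 to 0.09 for H2-T23, -0.24 to 0.11 for H2-T24, -0.11 to 0.07 for Nlrc5 and -0.06 to 0.10 for Tapbp. The log2 ratio of class I to class II was 5.02 by sums and 1.68 by medians, which weigh rare genes as much as abundant ones. The r of H2-K1 with B2m turned to -0.15 without the 2 farthest livers. The response element was found in 3 windows in its form of 10 letters and in 9 in its shortened form.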

Other observations

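The table also lists 11 H2- genes that are annotated as pseudogenes and lie outside the genes described above, 5 of which passed the filter. The most abundant was H2-K2, at 6.85 to 11.3 FPKM in 9 livers and at 27.7 FPKM in ASK1+hep replicate 3, the liver in which H2-Q10 also had its highest level (1241 FPKM). H2-Q5 stood at 3.19 to 5.42 FPKM, H2-Bl at 0.734 to 3.20, H2-T10 at 0.706 to 1.89 and H2-T-ps at 0.244 to 1.29. H2-Ea-ps, the gene of the E alpha chain, had 0 reads in every liver, while H2-Eb1, the partner chain, stood at 10.8 to 26.6 FPKM. The C57BL/6 strain carries a defect in the E alpha gene. These levels are reported as values, and no explanation was tested.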
